A study of Mus musculus with 10 samples.

Results

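The genes of prostaglandin synthesis and reception were examined in cultured mouse adipose stem and precursor cells (ASPCs). These are 10 genes, taken by symbol from the 25229 rows of the count table: the cyclooxygenases Ptgs1 and Ptgs2, the terminal synthases Ptges, Ptges2 and Ptgis, and the receptors Ptger1, Ptger2, Ptger3, Ptger4 and Ptgfr. All 10 were found, and all 10 were counted highly enough to be among the 14251 genes tested with edgeR. The cells were CD45-CD31-Pdgfra+ cells sorted from perigonadal white adipose tissue (gWAT) of WT mice, and they were grown to confluence and not passaged. They were then given FICZ at 100 nM, a tryptophan photoproduct that activates the aryl hydrocarbon receptor (AHR), or its vehicle DMSO, and RNA was collected after 6 hr. There were 5 libraries for DMSO and 5 for FICZ, numbered 1 to 5 in each group, and both groups share the sort, the medium and the WT genotype. The labels give neither the age of the mice nor whether the libraries come from separate cultures or animals, so that p-values measure the spread between these libraries, which may be technical.

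Cyclooxygenases turn arachidonic acid released from membranes into prostaglandin H2. Terminal synthases convert this short-lived intermediate into single prostanoids, such as prostaglandin E2 or prostacyclin, and each prostanoid acts on its own G protein-coupled receptors at the cell surface. In adipose tissue, prostacyclin is known as a signal that favours the differentiation of precursors, while prostaglandin F2α, which acts through the receptor encoded by Ptgfr, is known as one that restrains it.

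Libraries held 38328611 to 50210111 counts with DMSO and 40272024 to 47670865 with FICZ. Levels below are in CPM, the counts of a gene relative to the library total, with the totals adjusted by TMM for differences in composition. The AHR target Cyp1a1 was higher with FICZ (log2 fold change 3.25 ± 0.38 standard error, with an adjusted p of 0.0189 in the quasi-likelihood test of edgeR), as were Ahrr (1.66, adjusted p = 0.00324 by edgeR) and Tiparp (0.91, adjusted p = 0.0335 by edgeR). The ASPC markers summed to between 5630 and 8530 CPM in the 10 libraries, and all 9 of them were detected. DMSO replicate 5 stood apart in liver transcripts, with 9140 CPM over 10 hepatocyte markers against 1580 to 3810 CPM in the other libraries. DMSO replicates 1 and 4, with 3810 and 3740 CPM, also lay above every FICZ library (1710 to 2310 CPM). DMSO replicates 2 and 3 had 1580 and 1800 CPM. Leaving out DMSO replicate 5 therefore keeps DMSO libraries above the FICZ range. DMSO replicate 5 also had the highest sum of 11 macrophage markers (64.4 CPM against 26.0 to 39.8 CPM). Of the 5 mast cell markers, 4 had at most 3 counts in every library.

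AHR binds DNA at sites with the core GCGTG, and the 250 bases before the RefSeq start of each gene were searched for it on both strands (GRCm38.p6). An entry was found for 8 of the 10 genes, and 4 of them held the core, where 28.3% of 32536 mouse promoters of this length do. The longer form TNGCGTG, which contains the core and was chosen after the sequences were seen, was in 3 of the 8 and in 4.1% of all promoters. These 3 were Ptgs2 (chr1:150099781-150100030, + strand), Ptges (chr2:30903298-30903547, − strand) and Ptges2 (chr2:32395640-32395889, + strand), and their cores begin at positions -98, -165 and -96 from the start. Ptger3 held the core alone, read on the opposite strand. Ptgs1 (chr2:36230176-36230425, + strand), the gene with the smallest p below, held no match in this window. The RefSeq start of Ptges lies inside the span of the gene in GENCODE, downstream of the start of a longer transcript. The sequences of Ptgs1 and of the 3 genes with the longer form are shown, each 5′ to 3′ on the strand of its gene, with the core in capitals. A match describes letters only, and no binding was measured here.
Ptgs1: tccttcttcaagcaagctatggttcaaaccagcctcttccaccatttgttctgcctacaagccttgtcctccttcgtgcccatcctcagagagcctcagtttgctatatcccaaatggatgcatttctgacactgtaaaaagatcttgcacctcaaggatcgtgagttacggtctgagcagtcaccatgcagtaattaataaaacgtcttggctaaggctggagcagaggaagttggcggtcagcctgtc
Ptgs2: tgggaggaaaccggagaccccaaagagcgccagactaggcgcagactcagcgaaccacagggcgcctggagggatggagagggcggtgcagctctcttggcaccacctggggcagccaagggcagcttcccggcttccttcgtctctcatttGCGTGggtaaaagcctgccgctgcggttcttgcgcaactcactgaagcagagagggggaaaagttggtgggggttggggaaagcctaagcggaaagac
Ptges: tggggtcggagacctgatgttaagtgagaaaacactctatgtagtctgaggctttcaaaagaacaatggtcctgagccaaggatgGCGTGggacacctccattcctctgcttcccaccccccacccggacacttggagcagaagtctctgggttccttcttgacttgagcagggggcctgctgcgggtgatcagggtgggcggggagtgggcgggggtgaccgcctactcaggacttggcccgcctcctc
Ptges2: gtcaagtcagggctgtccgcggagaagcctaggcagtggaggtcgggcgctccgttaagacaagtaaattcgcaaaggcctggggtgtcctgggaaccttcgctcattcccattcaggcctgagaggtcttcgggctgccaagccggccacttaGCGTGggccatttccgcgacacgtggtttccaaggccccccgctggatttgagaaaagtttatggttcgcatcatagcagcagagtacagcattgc

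The level of each gene was first compared with that of the others. Per length of its merged exons, Ptgis, which encodes prostacyclin synthase, had the highest level of the 10 genes, with a mean of 63.3 CPM per kb over all libraries and a range of 46.2 to 73.1. Ptgs1, the cyclooxygenase gene that most cells express constitutively, followed at 41.7 CPM per kb (28.8 to 55.9). The ranges of these genes overlapped, yet Ptgis was above Ptgs1 in all 10 libraries. Ptges, the gene of the inducible microsomal prostaglandin E synthase, lay at 14 CPM per kb (12.6 to 16.0), with a range apart from that of Ptgs1 above it and of Ptger4 below it. Within the table these genes stood at percentiles 96.1, 93.6 and 80.4 of CPM per kb.

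A middle tier held Ptger4, Ptges2 and Ptgs2, at 4.82, 4.74 and 4.18 CPM per kb. Ptger4 encodes EP4, a receptor of prostaglandin E2 that raises cAMP, and Ptges2 a membrane-associated synthase whose mRNA is present in most tissues. These 3 genes did not differ beyond their spread, and Ptger4 was above Ptges2 in 4 of 10 libraries. Ptgs2, the inducible cyclooxygenase, ranged from 1.55 to 9.91 CPM per kb, wider than any other gene of the tier.

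The remaining receptors were low. Ptger3, which encodes the Gi-coupled receptor EP3, had 0.535 CPM per kb, and its range of 0.295 to 0.942 lay below that of Ptgs2. Ptgfr had 0.199, Ptger2, the gene of the cAMP-raising receptor EP2, 0.133, and Ptger1, the gene of EP1, 0.110 CPM per kb. Ranges overlapped between each neighbouring pair from Ptger3 to Ptger1, and Ptger2 was above Ptger1 in 5 of 10 libraries. The counts behind these values were 68 to 261 for Ptger3, 33 to 91 for Ptgfr, 15 to 51 for Ptger2 and 11 to 36 for Ptger1.

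**Figure D1:**
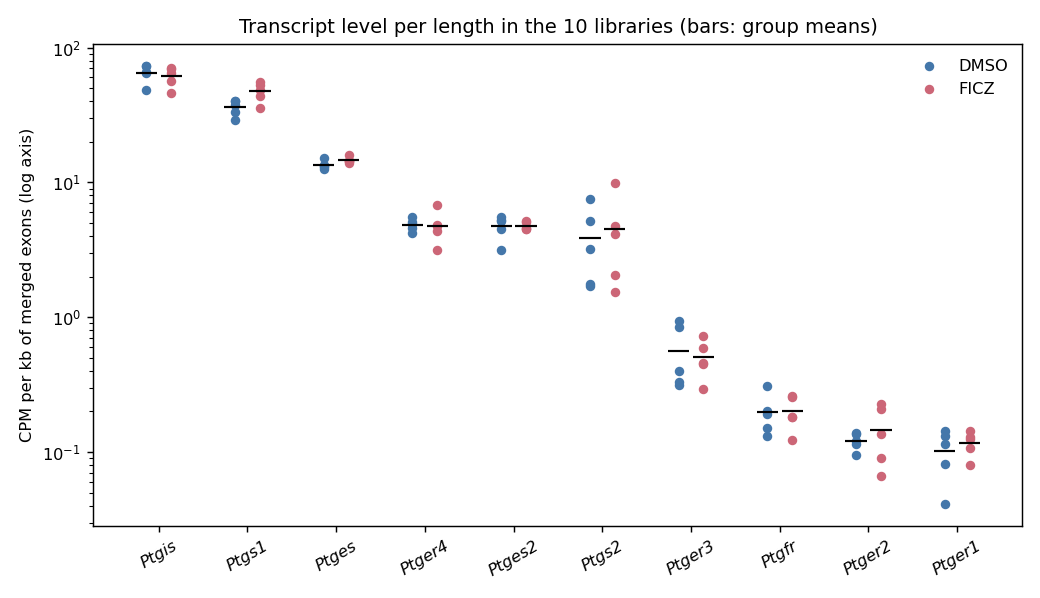
Level of each prostaglandin synthase and receptor gene in CPM per kb of merged exons (log axis), one point per library (blue DMSO, red FICZ) with a bar at each group's mean (n = 5 each). Ptgis (mean 63.3 over both groups) and Ptgs1 (41.7) lead, and Ptger1 (0.110) is lowest.

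Ptger1 is uncertain, because 63.3% of the 50-base words in its transcripts also occur in those of other genes and the sources used here do not say how strand or shared reads were handled in counting. A pseudogene on the opposite strand, Gm15937, overlaps 15.27% of the exonic bases of Ptger4. For the other 8 genes the exons of any one overlapping gene covered at most 6.08%. Ptgs1 lies on chromosome 2 (36230426 to 36252272 of GRCm38, + strand), as do Ptges (30889471 to 30929863, − strand), Ptges2 (32395896 to 32405772, + strand) and Ptgis (167191805 to 167240604, − strand). Ptgs2 lies on chromosome 1 (150100031 to 150108227, + strand), with the antisense transcript Ptgs2os 67 bases away. The receptor genes lie on chromosomes 8 (Ptger1, 83666678 to 83672753), 14 (Ptger2, 44988195 to 45003820), 15 (Ptger4, 5206661 to 5244187) and 3 (Ptger3, 157566892 to 157645888, and Ptgfr, 151796502 to 151837630).

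The question of the comparison was which transcripts of these ASPCs change within 6 hr of FICZ. None of the 10 genes passed the threshold, an adjusted p at or under 0.05 over all genes tested with edgeR. Of all genes tested, 0.0211% passed it. With an unadjusted p at or under 0.05 stood 1 of the 10, Ptgs1, beside 4.82% of all genes tested, and 1 gene of 10 is no result about the list. The adjusted p was 0.999 for each of the 10 genes, and the ranges of DMSO and FICZ overlapped for each, whereas they lay apart for 0.47% of all genes. In bulk RNA, fewer cells of a type and less RNA per cell cannot be told apart.

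Ptgs1 had 146, 156, 129, 112 and 156 CPM in DMSO replicates 1 to 5, and 205, 217, 187, 137 and 171 CPM in FICZ replicates 1 to 5. The FICZ libraries other than replicate 4 lay above every DMSO library, and FICZ replicate 4 lay within the DMSO range. The means were 140 ± 19.2 CPM and 184 ± 31.3 CPM (± SD, n = 5 per group). The log2 fold change was 0.39 (standard error 0.13), a 1.31-fold difference with a 95% interval of 1.07 to 1.61, and it did not pass over all genes (unadjusted p = 0.013 and adjusted p = 0.999 in edgeR).

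FICZ was above DMSO for Ptgs1 in all 5 same-numbered pairs, by 0.49, 0.47, 0.54, 0.30 and 0.13 on the log2 scale. On log2 CPM, an exact permutation test (two-sided) gave p = 0.0397, where 5 libraries against 5 allow 0.00794 at the least. Of 22 fits, which differ in scaling, filter, tool, covariate or the libraries kept, all gave a higher level with FICZ at an unadjusted p of 0.05 or less, and none passed after adjustment. The smallest adjusted p among them was 0.077, from DESeq2 with the replicate number as a block. In that fit 0.14% of genes passed.

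Ptgs2 had 23.7, 14.6, 34.5, 7.72 and 8.11 CPM in DMSO replicates 1 to 5, and 19.0, 21.9, 45.4, 9.44 and 7.12 CPM in FICZ replicates 1 to 5. Replicates 3 were highest and replicates 4 and 5 lowest in both groups, and the DMSO range lay inside the FICZ range. The means were 17.7 ± 11.4 CPM and 20.6 ± 15.2 CPM (± SD, n = 5 per group). For a log2 fold change of 0.22 ± 0.53 standard error, the 95% interval ran from 0.518-fold to 2.60-fold, so that changes within these bounds could not be told from none. The differences within same-numbered pairs were -0.31, 0.58, 0.39, 0.29 and -0.19 on the log2 scale, and the block by replicate number gave an interval of 0.884-fold to 1.41-fold.

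**Figure D2:**
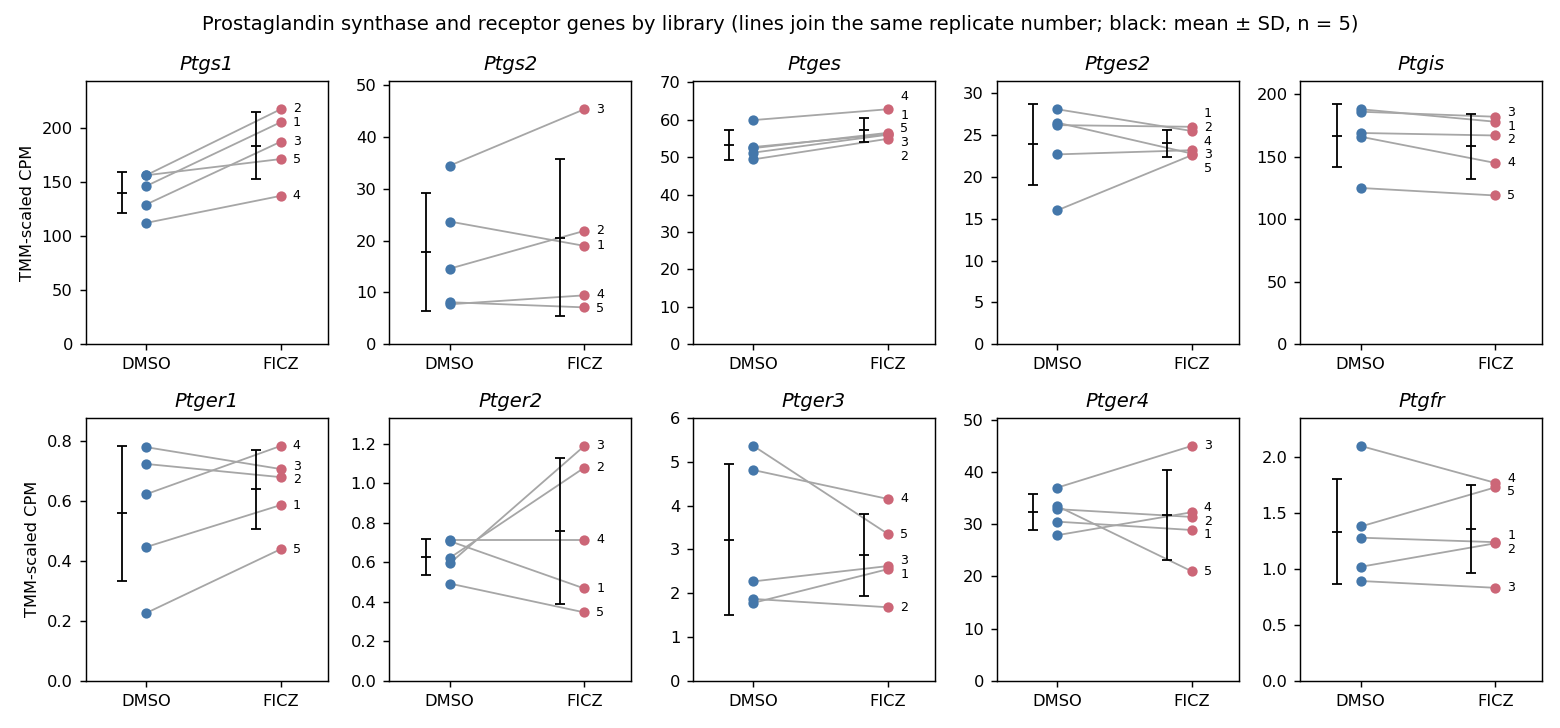
TMM-scaled CPM of each of the 10 genes in every library (blue DMSO, red FICZ), with lines between libraries of the same replicate number, whose number stands at the right, and black bars for mean ± SD (n = 5). Along all 5 lines Ptgs1 (by 0.13 to 0.54 on the log2 scale) and Ptges (0.07 to 0.15) are higher with FICZ and Ptgis is lower, and no gene's groups are apart.

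Among the terminal synthases, Ptges had 52.4, 49.4, 51.2, 59.9 and 52.7 CPM in DMSO replicates 1 to 5. In FICZ replicates 1 to 5 it had 56.5, 54.9, 56.0, 62.8 and 56.1 CPM. It was higher with FICZ in every same-numbered pair, by 0.07 to 0.15 on the log2 scale, and replicate 4 was the highest library of each group. The log2 fold change of 0.11 (standard error 0.07) has a 95% interval of 0.964-fold to 1.21-fold and did not pass (unadjusted p = 0.169 from edgeR's test, and 0.077 in the blocked fit).

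Ptgis had 188, 169, 186, 166 and 125 CPM in DMSO replicates 1 to 5, and 178, 167, 182, 145 and 119 CPM in FICZ replicates 1 to 5. It was lower with FICZ in each pair, by between 0.02 and 0.19 on the log2 scale, and replicate 5 was lowest in both groups. The log2 fold change was -0.08 (standard error 0.14), with a 95% interval of 0.769-fold to 1.17-fold. Ptges2 had 26.2, 28.1, 26.5, 22.7 and 16.0 CPM in DMSO and 26.0, 25.5, 22.8, 23.2 and 22.6 CPM in FICZ. DMSO replicate 5, the library with the most liver transcripts, was lowest, and the other 9 lay between 22.6 and 28.1 CPM. Its log2 fold change was 0.01 (interval 0.818-fold to 1.24-fold).

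Counted over pairs, 2 of the 10 genes were higher with FICZ in all 5 (Ptgs1 and Ptges) and 1 was lower in all 5 (Ptgis). The shares over all genes tested were 4.32% higher and 2.81% lower in all 5 pairs. An exact sign-flip test over 5 pairs gave each of these 3 genes the smallest p it can give, which is above 0.05. It gives this p to any gene with 5 differences of one sign, so that it adds nothing here. When edgeR took the replicate number as a block, none of the 10 passed after adjustment (0.0561% of all genes did). At an unadjusted p of 0.05 or less, 1 was higher, again Ptgs1 (log2 fold change 0.39, standard error 0.08, adjusted p = 0.568), and 0 were lower, where 2.48% of all genes were higher and 2.17% lower.

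**Figure D3:**
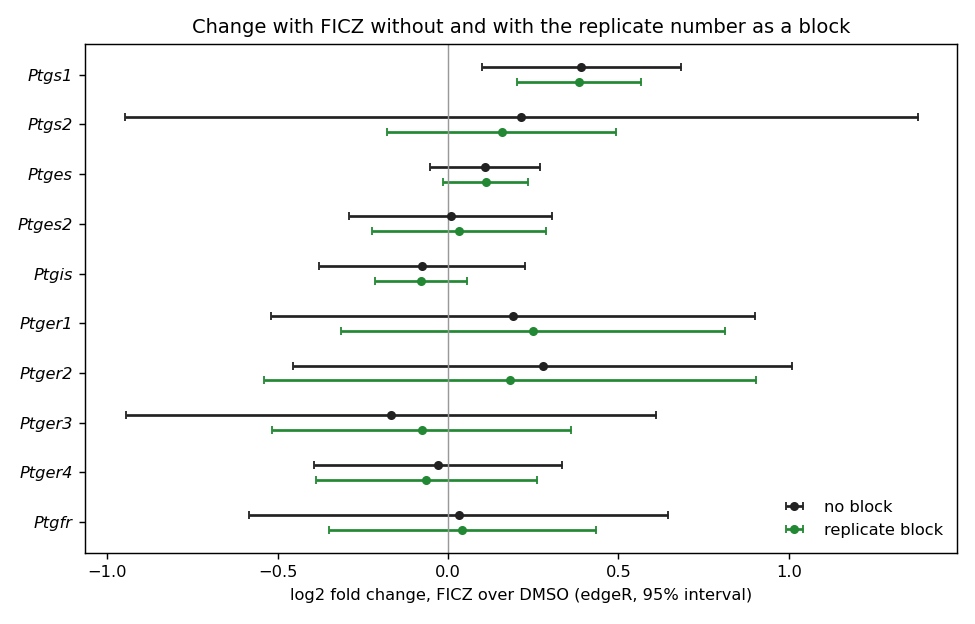
Log2 fold change of FICZ over DMSO for each gene from edgeR, with 95% intervals, for the fit without a block (black) and the fit blocked by replicate number (green). The interval of Ptgs1 lies above 0 in both fits, that of Ptgs2 narrows most with the block, and the intervals of the other 9 genes include 0.

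Of the receptors of prostaglandin E2, Ptger4 had 30.5, 32.9, 37.0, 27.9 and 33.5 CPM in DMSO replicates 1 to 5. In FICZ replicates 1 to 5 it had 28.9, 31.4, 45, 32.3 and 21.0 CPM, so that the highest and the lowest library were both in FICZ. Its log2 fold change was -0.03 (standard error 0.17, interval 0.761-fold to 1.26-fold). Ptger3 had 1.78, 1.87, 2.27, 4.81 and 5.36 CPM in DMSO and 2.55, 1.68, 2.62, 4.15 and 3.35 CPM in FICZ. Replicates 4 and 5 were the highest of each group, and the log2 fold change of -0.17 (standard error 0.36) has an interval of 0.519-fold to 1.53-fold.

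Ptger2 had 0.708, 0.623, 0.595, 0.714 and 0.493 CPM in DMSO and 0.468, 1.08, 1.19, 0.714 and 0.347 CPM in FICZ. The FICZ libraries spread on both sides of the DMSO libraries, with replicates 2 and 3 above them and replicates 1 and 5 below them. The log2 fold change was 0.28 (interval 0.730-fold to 2.01-fold). Ptger1, with the doubt given above, had 0.559 ± 0.225 CPM with DMSO and 0.639 ± 0.132 CPM with FICZ (± SD, n = 5 per group), with replicate 5 lowest in both groups.

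Ptgfr, whose product FP binds prostaglandin F2α, had 1.28, 1.02, 0.893, 2.10 and 1.38 CPM in DMSO and 1.24, 1.23, 0.832, 1.77 and 1.73 CPM in FICZ. Replicate 3 was lowest and replicate 4 highest in each group. The log2 fold change was 0.03 (standard error 0.28, interval 0.667-fold to 1.56-fold). On the log2 scale the interval of Ptgfr was -0.58 to 0.65 without a block and -0.35 to 0.43 with it, and that of Ptger3 -0.95 to 0.61 and -0.52 to 0.36.

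The replicate number marked a larger share of the spread than the treatment for all 10 genes. The medians over all genes tested had the same order, so that this order is no result about the 10 genes. The sum of squares of log2 CPM over the 10 libraries was divided into treatment, replicate number and remainder, as a description. Over all genes tested, the medians of these shares were 4.35%, 58.1% and 32.0%, and the replicate number takes 4 of the 9 degrees of freedom. For Ptgs2 the replicate number held 95.6% and the treatment 0.728%. For Ptgis it held 95%, for Ptgfr 92.5% and for Ptger3 87.2%, each above the median of all genes. Ptgs1 had the largest share for treatment, 45.7%, beside 47.3% for the replicate number, and Ptges followed with 31.2%. Ptger2 and Ptger4 had the largest remainders, 41.9% and 39.4%.

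**Figure D4:**
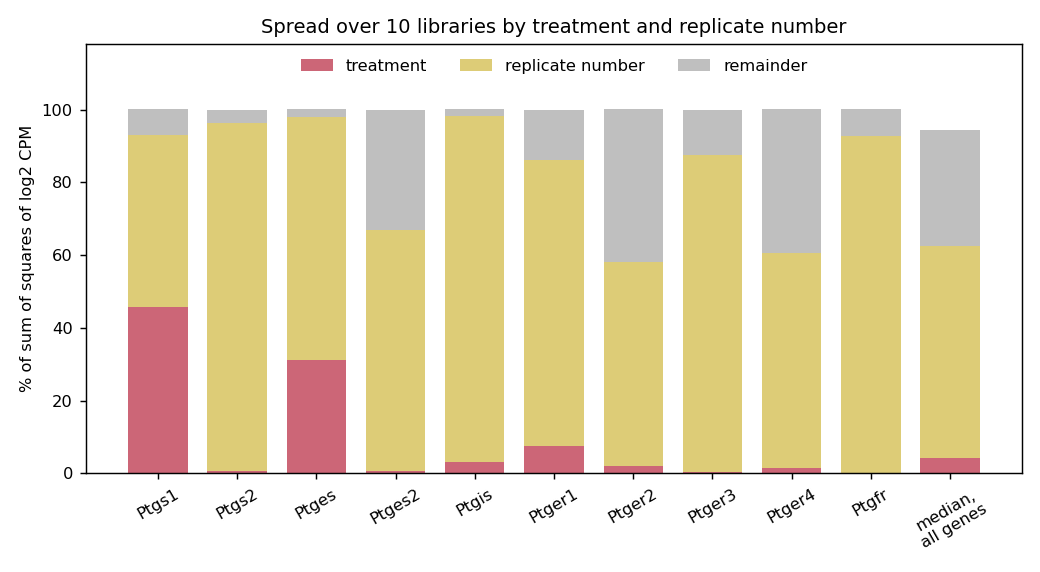
Share of the sum of squares of log2 CPM over 10 libraries (percent) held by treatment (red), replicate number (yellow) and remainder (grey), for each gene and as the median of each share over all genes tested, whose 3 medians need not add to 100. The treatment share is largest for Ptgs1 (45.7%), and the replicate number holds 95.6% for Ptgs2.

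Ptgs2 was among the most variable genes of the table. Its SD of log2 CPM within groups was 1.00, at percentile 99.2 of all genes tested. Its highest library was 6.38-fold above its lowest, while the widest gap within a same-numbered pair was 1.5-fold. The means of the same-numbered pairs were 21.3, 18.2, 40.0, 8.58 and 7.61 CPM for replicates 1 to 5. At the other end, Ptges varied least of the 10 genes, with a within-group SD of 0.09 at percentile 5.62, and its highest library was 1.27-fold above its lowest.

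The order of the replicate numbers was not the same for all genes. Where Ptgs2 was lowest, in replicates 4 and 5, Ptger3 was highest, with pair means of 4.48 and 4.35 CPM against 1.77 to 2.45 CPM in the others. Ptgfr followed the same order, with pair means of 1.93 and 1.55 CPM against 0.863 to 1.26 CPM. Ptger4 and Ptgs2 were both highest in replicate 3, where the pair mean of Ptger4 was 41.0 CPM and the others were 27.2 to 32.1 CPM. Ptgis was lowest in replicate 5, with a pair mean of 122 CPM against 156 to 184 CPM.

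Marker levels also moved with the replicate number. The 5 mature adipocyte markers summed to between 16.8 and 21.9 CPM in replicates 4 and 5 and to between 4.16 and 12.8 CPM in the others. Plin1 and Adipoq, with means of 7.02 and 3.78 CPM, make up most of this sum, and Lep had 0 counts throughout. Cidec did not follow the sum, with 44 and 33 counts in FICZ replicates 4 and 5 and 52 in FICZ replicate 1. The mast cell list, which is counted through Kit alone, summed to between 19.1 and 33.6 CPM in replicates 4 and 5 and to between 6.96 and 10.8 CPM in the others. The ASPC markers summed to between 7270 and 8530 CPM in replicates 4 and 5 and to between 5630 and 6580 CPM in the others. Col1a1, with a mean of 3170 CPM, is the largest part of this sum, and not every marker followed it. Thy1 had its lowest count of each group in replicate 4. The part of these cell type markers in the levels of Ptgs2, Ptger3 and Ptgfr was not tested.

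Ratios within a library do not depend on how libraries are scaled to each other. In every library Ptgs1 was above Ptgs2 per kb, between 4.41-fold in DMSO replicate 3 and 28.3-fold in FICZ replicate 5. The log2 ratio of Ptgs2 to Ptgs1 was -3.45 ± 0.95 in DMSO and -3.68 ± 0.93 in FICZ (± SD, n = 5 per group). It was lower with FICZ in 4 of 5 pairs, and the difference of -0.23 was smaller than the SD of either group (p = 0.698, exact permutation test, two-sided). The p-values of the 4 ratios compared in this way were 0.931, 0.931, 0.931 and 0.992 after Benjamini-Hochberg adjustment of the exact tests.

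The balance of the terminal synthases, a ratio chosen after the counts were seen, was -2.25 ± 0.27 on the log2 scale of Ptges to Ptgis per kb in DMSO and -2.06 ± 0.28 in FICZ (± SD, n = 5 per group). Because Ptges was higher and Ptgis lower in all 5 pairs, the ratio had to be higher with FICZ in 5 of 5, which adds nothing. The difference between the means was 0.19 (exact two-sided permutation test, p = 0.302). The log2 ratio of Ptger4 to Ptger3, chosen likewise, was 3.26 ± 0.82 and 3.26 ± 0.69.

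Prostanoid receptors outside the 10 genes show where the 5 members stand. The sum over 9 receptor genes, per kb, was led by Ptgir, the gene of the prostacyclin receptor, with 79.1% ± 5.64 in DMSO and 81.2% ± 2.69 in FICZ (± SD, n = 5 per group). Ptger4 held 12.2% ± 1.79 and 11.3% ± 1.84, and Tbxa2r, the gene of the thromboxane receptor, 6.08% ± 2.86 and 5.07% ± 1.77. Ptger3 held 1.52% and 1.27%, Ptgfr 0.515% and 0.510%, Ptger2 0.303% and 0.342%, and Ptger1 0.250% and 0.282%. Ptgdr and Ptgdr2, the receptor genes of prostaglandin D2, had at most 2 counts in any library, under the detection floor of 3 counts. In DMSO replicates 4 and 5 the share of Ptgir was 74.8% and 71.7%, below the 77.3% to 84.4% of the other libraries.

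**Figure D5:**
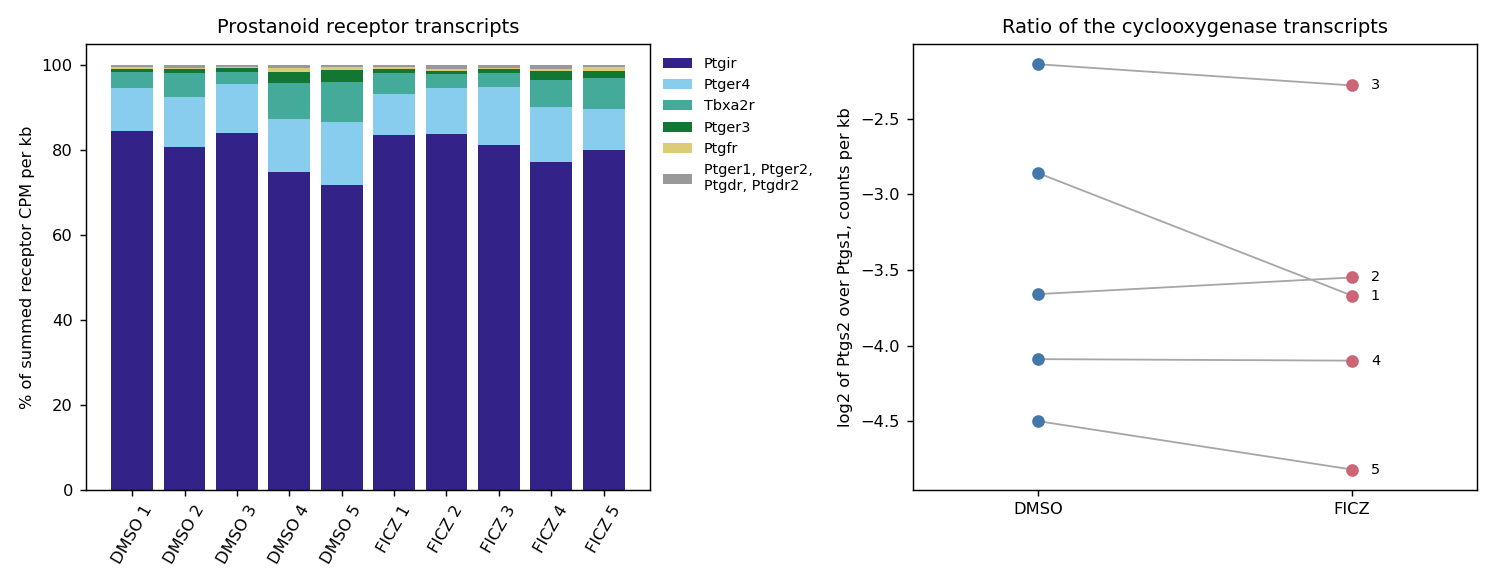
Left, share of each receptor gene in the summed CPM per kb of 9 prostanoid receptors (percent) for each library. Right, log2 ratio of Ptgs2 to Ptgs1 in counts per kb, with lines joining the same replicate number. Ptgir holds 71.7% to 84.4% of receptor transcripts, and the ratio lies below 0 in all 10 libraries.

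The Gs-coupled receptors Ptger2, Ptger4, Ptgir and Ptgdr raise cAMP, while the others couple to Gq or Gi. The log2 ratio of the first sum to the second was 3.59 ± 0.79 in DMSO and 3.77 ± 0.56 in FICZ (± SD, n = 5 per group). The difference of 0.18 was within the SD of either group, with 3 of 5 pairs higher (exact two-sided permutation test, p = 0.675). By library the fold of the first sum over the second ran from 6.72 in DMSO replicate 5 to 22.5 in DMSO replicate 3.

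The rest of the pathway was read from lists of eicosanoid and response genes, in which 78 genes were in the table and 61 were tested. None passed the threshold, and 27 were higher and 34 lower with FICZ, where 7666 of all genes tested were higher and 6585 lower. The median log2 fold change was -0.02, against 0.01 over all genes and 0.07 over the 10 members. The unadjusted p was 0.05 or less for 1 higher and 4 lower genes, beside 190 higher and 497 lower of all 14251 genes tested. Such list genes numbered 0 without DMSO replicate 5 and 0 without FICZ replicate 5. They numbered 1 without DMSO replicate 4, without FICZ replicate 1 or without FICZ replicate 2. Of the 15 tested genes listed for release and return of arachidonic acid, not all of which do either, 6 were higher and 9 lower. Anxa1, whose product annexin A1 restrains phospholipases, led this list per length with 523 CPM per kb, and its log2 fold change was 0.03 ± 0.10 standard error. Pla2g2e, a secreted phospholipase A2, had 23.1 ± 4.15 CPM with DMSO and 17.4 ± 3.81 CPM with FICZ (± SD, n = 5 per group). Its log2 fold change was -0.41 (standard error 0.16, with an adjusted p of 0.999 in edgeR). Mgll, a monoglyceride lipase, had a log2 fold change of -0.66 (unadjusted p = 0.0226 in edgeR's test, and 0.0563 in edgeR with the replicate block). Its log2 fold change was -0.43 without DMSO replicate 5. With the log2 CPM of Alb, the albumin gene, as a covariate it was -0.28.

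All 6 tested genes among the other synthases had a log2 fold change above 0, with a median of 0.09, where 7666 of all 14251 genes tested were above 0. Ptges3, Prxl2b and Gstm2 were at 0.03, 0.03 and 0.04, and none of the 6 passed the threshold. Akr1c18, an aldo-keto reductase, led the list at 637 CPM per kb, and Ptges3, the gene of the co-chaperone p23 that was also described as a cytosolic prostaglandin E synthase, followed at 74.4. Akr1b8 had 80.4 ± 5.03 CPM with DMSO and 88.5 ± 5.14 CPM with FICZ (± SD, n = 5 per group) and was higher in all 5 pairs (unadjusted p = 0.0778 in edgeR, 0.0345 in edgeR with the replicate block and 0.0905 in DESeq2 with it). Ptgds and Hpgds, the prostaglandin D synthases, had at most 3 and 19 counts, and Tbxas1, thromboxane synthase, at most 18, and they were under the filter.

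Of the 10 tested genes of transport and inactivation, 5 were higher and 5 lower. Zadh2, which reduces 15-keto prostaglandins, was the 1 of 61 tested list genes whose groups did not overlap, beside 0.47% of all genes tested. A single gene of 61 is no result about the lists. It had between 138 and 146 CPM in DMSO and between 150 and 168 CPM in FICZ. The log2 fold change was 0.14 ± 0.06 standard error, with an adjusted p of 0.999 in edgeR. Abcc4, an exporter of prostaglandin E2, had 98.0 ± 22.8 CPM with DMSO and 120 ± 20.9 CPM with FICZ (± SD, n = 5 per group). Its log2 fold change was 0.29 (unadjusted p = 0.108 in edgeR), or 0.31 when blocked by replicate number (unadjusted p = 0.00728 and adjusted p = 0.858 in edgeR's test). Cbr3, a carbonyl reductase, led the list at 67.8 CPM per kb, and its log2 fold change was 0.42 ± 0.33 standard error.

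In the lipoxygenase list, which also holds the epoxide hydrolase gene Ephx2, 1 of 5 tested genes was higher and 4, Ephx2 among them, were lower. Lta4h, leukotriene A4 hydrolase, had the highest level, 15.6 CPM per kb, with a log2 fold change of -0.05. Ephx2, soluble epoxide hydrolase, had 34.9 ± 25.2 CPM with DMSO and 19.2 ± 2.18 CPM with FICZ (± SD, n = 5 per group). Its highest library, with 77.2 CPM, was in DMSO, the group that holds the library with the most liver transcripts. With the log2 CPM of Alb, the albumin gene, as a covariate, its log2 fold change went from -0.86 to 0.03, and without DMSO replicate 5 it was -0.34.

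Genes that cAMP is known to raise, and Gnas, which encodes the Gs α subunit, gave 3 higher and 9 lower of 12 tested, with a median log2 fold change of -0.12. Dusp1, a phosphatase gene, had 13.6 ± 0.49 CPM with DMSO and 11.8 ± 1.22 CPM with FICZ (± SD, n = 5 per group) and was lower in all 5 pairs (unadjusted p = 0.0468 and adjusted p = 0.999 in edgeR's test). Pde4b, a cAMP phosphodiesterase, was also lower in all 5 pairs, by 0.20 to 0.66 on the log2 scale. Its log2 fold change of -0.36 had an unadjusted p of 0.25 in edgeR without a block, 0.0279 with it and 0.0742 in DESeq2 with it. Without DMSO replicate 5 it was -0.20, and with Alb as a covariate -0.08. Of 10 genes that regulate Ptgs2, 5 were higher and 5 lower. Cebpb had a log2 fold change of 0.00 (0.18 standard error), and Zfp36l1, which promotes decay of short-lived mRNAs, had -0.30 (unadjusted p = 0.18 in edgeR's test). In the blocked fit Zfp36l1 had -0.26 (unadjusted p = 0.0391), without DMSO replicate 5 it had -0.11 in the fit without a block, and with Alb as a covariate 0.01.

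Up to 2 genes with the most similar profile over the 10 libraries are given for each of the 10 genes, found by Pearson's r of log2 CPM. These are the highest values over all other genes tested, and libraries of one number are not independent, so that r is a description. Ptgs2 was closest to Slc2a1, the glucose transporter GLUT1 (r = 0.99, Spearman's rho 0.93), and to Cd44, a hyaluronan receptor (r = 0.98, rho 1.00). Ptger4 was closest to Noct (r = 0.98) and to the thrombin receptor gene F2r (r = 0.97), which ranged from 257 to 463 CPM. Ptger3 was closest to Entpd2 (r = 0.98), an ectonucleotidase, and Tmed3 (r = 0.97), and Ptges2 to Nap1l4 (r = 0.99).

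Ptgs1 was closest to Rbm11 (r = 0.94), which had at most 0.530 CPM, and to the fucosyltransferase gene Fut8 (r = 0.90). Ptges was closest to Prrx2, a homeobox gene of mesenchyme (r = 0.89, and 0.72 without the 2 libraries farthest from the median), and to Tmem268 (r = 0.88). Ptgis paired with Lat and A230028O05Rik (r = 0.94 each), and Ptgfr with Gm5084 (r = 0.97) and Smim1 (r = 0.95). Ptger1, with the doubt given above, was closest to Nfkb2 (r = 0.95) and Map3k14 (r = 0.94). Ptger2 was closest to 4833418N02Rik (r = 0.89) and 1810055G02Rik (r = 0.86). Without the 2 libraries farthest from the median, these values were 0.84 and 0.74 for Ptger1 and 0.82 and 0.64 for Ptger2. None of the 10 genes was among the closest 2 of another.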

How the data were processed

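The authors aligned the reads with STAR 2.7.7 to mm10, per the methods and the submitters' processing notes, and deposited one table of raw counts by gene symbol, not normalized. The counting program, annotation and strand setting are not given in the sources used here. The counts were whole numbers, with 38328611 to 50210111 per library, and the floor of 3 counts covers counting error only. The 10 genes were taken by symbol, and the members and lists were chosen with earlier results of these data known.

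Genes were tested with edgeR 4.0.16 (R 4.3.3): TMM, edgeR's filter by expression, robust quasi-likelihood test, and Benjamini-Hochberg adjustment over 14251 genes at a threshold of 0.05. Standard errors were |log2 fold change| / √F. Log2 CPM used a prior count of 2 and ratios a prior of 0.5 counts. Exon lengths, positions and overlaps came from GENCODE for GRCm38, and promoters from RefSeq (GRCm38.p6). Same-numbered libraries deviated from their group means together (correlations of 0.269, 0.275, 0.154, 0.317 and 0.244 over the 5 pairs, mean -0.0599 for other pairs), so that the numbers were taken to pair the libraries, from this check and not from the labels. Deviations within a group sum to 0, so that the mean for other pairs largely follows from the same-numbered pairs. Alternatives were other scalings and filters, limma-voom (limma 3.58.1), DESeq2 1.42.0, the replicate block, Alb as a covariate, and leaving out each library. The tests were tried on simulated counts. Named beside the members were list genes at an unadjusted p of 0.05 or less without or with the block, the 2 highest per kb in each list, the 2 most similar genes for each member, overlapping genes, and Cyp1a1, Ahrr and Tiparp. Not every gene that this rule names is reported here.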

Additional observations from a re-analysis of the deposited data

Results flagged for a closer look

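The level of Ptges in FICZ replicate 4, 62.8 CPM, stood apart from the other FICZ libraries, which lay between 54.9 and 56.5 CPM. The gap to the next library was 0.791 of the range of the group on the log2 scale, above Dixon's critical value of 0.710 for 5 samples. This was 1 of 20 groups examined, and chance flags about 1 in 20. DMSO replicate 4 was also the highest library of its group for Ptges, with 59.9 CPM.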

How the results depend on the processing

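No member passed an adjusted p of 0.05 in any of the 22 fits, Ptgs1 alone reached an unadjusted p of 0.05 (Ptger1 and Ptger2 were not tested with a filter of 1 CPM), and the replicate block changed no member's call. The count of all genes past the threshold was 3, and it was 16 with DESeq2, 8 with the replicate block in edgeR, 26 with the replicate block in DESeq2 and 1 to 4 without one library. List genes at an unadjusted p of 0.05 numbered 5, and 2 with no filter on low counts, 1 with Alb as a covariate and 0 to 5 without one library. It was 0 without DMSO replicate 5 and 0 without FICZ replicate 5. Small log2 fold changes changed sign: without one library, Ptgs2 ran from -0.30 (without FICZ replicate 3) to 0.61, Ptges2 from -0.11 to 0.08, Ptger1 from -0.02 to 0.34, Ptger3 from -0.34 to 0.10, Ptger4 from -0.19 to 0.07 and Ptgfr from -0.08 to 0.25. Ptges2 was at -0.01 with upper-quartile factors and with a filter of 1 CPM. With Alb as a covariate, Ptges2 was at -0.14, Ptger1 at -0.14, Ptger3 at 0.23, Ephx2 at 0.03 and Zfp36l1 at 0.01. The cause was not tested. The difference in the log2 ratio of Ptgs2 to Ptgs1 ran from -0.58 to 0.10 without one library, and that of the Gs-coupled receptors from -0.03 to 0.41. Ptger1, Ptger2, Ptger3 and Ptgfr had 11 to 261 counts per library, and the part of depth in their intervals was not tested.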
